A study of Caenorhabditis elegans with 12 samples.

Results

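The 6 libraries described here are poly(A) RNA-seq libraries of whole Caenorhabditis elegans larvae of strain LJ2703, which carries the alleles daf-2(e1370) and daf-42(ys54). They were taken by their titles, 3 from larvae harvested at 60 h after egg laying and 3 from larvae harvested at 52 h, out of 12 libraries in all. The remaining 6 come from strain CB1370, which carries daf-2(e1370) alone, with 3 libraries at 60 h and 3 at 52 h, and serve here only to show where the double mutant differs. All 4 groups carry e1370, so no library has wild-type daf-2. Per the labels, 20 adults on each of 6 plates laid eggs for 2 h at 15 °C, and the progeny were raised at 25 °C, a temperature at which e1370 larvae form dauers. The deposited design places both times late in L2d. By the labels, living and dead L2d larvae were mixed in the later daf-2;daf-42 harvest. Their shares are not given, so the later time and the death of larvae cannot be told apart. Bulk libraries of whole animals also cannot tell fewer cells of a type from less RNA per cell. Nothing in the labels says that replicates were separate cultures, so the p-values below measure only the spread between these samples.

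Dauer is a non-feeding, stress-resistant larval stage that C. elegans reaches through L2d, a slow-growing stage in which the animal stores fat and still chooses between dauer and reproductive growth. Insulin-like signalling through the receptor DAF-2, TGF-beta signalling started by DAF-7, and steroid hormones called dafachronic acids that bind the nuclear receptor DAF-12 promote growth, and low signalling favours dauer. Entry is also a molt, in which the epidermis lays down a transient pre-cuticle, then a new collagen cuticle with dauer-specific ridges, and sheds the old one. The gene daf-42 is required for dauer development. The comparison of 60 h with 52 h in daf-2;daf-42 asks what changed in these larvae late in L2d, up to a time when, by the labels, some were dead.

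The libraries held 30011686 to 38977807 estimated counts at 60 h and 33204143 to 43519410 at 52 h. The first principal component of the 6 libraries took 79.9% of the variance and separated the times, with scores of 29.7, 117.2 and 69.7 in replicates 1 to 3 at 60 h, against -65.6, -64.9 and -86.1 at 52 h. The 60 h replicates therefore lay farther apart than the 52 h replicates, and replicate 1 lay nearest to 52 h. The median SD of log2 CPM (counts scaled to library size) over genes was 0.37 at 60 h and 0.21 at 52 h. The 60 h libraries also carried a trend with transcript length. In transcripts of 8000 bases or more (74 genes), the median log2 CPM stood at -0.88, -3.18 and -2.27 in replicates 1 to 3 at 60 h relative to the mean of the 52 h libraries, while in transcripts under 1000 bases (6024 genes) it stood at 0.28, 0.88 and 0.50. The change over time correlated with transcript length across the 16371 tested genes at a Spearman rho of -0.54 in daf-2;daf-42 and -0.05 in daf-2 (a description across genes, which share libraries). Single libraries of the other groups also moved with length, in both directions. In the longest class daf-2 replicates 1 to 3 at 60 h stood at 0.26, 1.31 and -0.43 from the daf-2 mean at 52 h. The daf-2;daf-42 replicates at 52 h stood at 0.13, -0.56 and 0.48 from their own mean. In daf-2;daf-42 the mean fragment length was 219.3 to 223.9 bases at 60 h and 231.0 to 233.4 bases at 52 h. In daf-2 replicates 1 to 3 it was 224.8, 234.6 and 228.4 bases at 60 h and 239.4, 231.2 and 231.1 bases at 52 h. Whether RNA integrity, the dead larvae or regulation moved with length was not tested. Counts for each gene list, and values of several single genes, are therefore also given length-adjusted, from a fit in which the length trend of each library was removed.

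**Figure D1:**
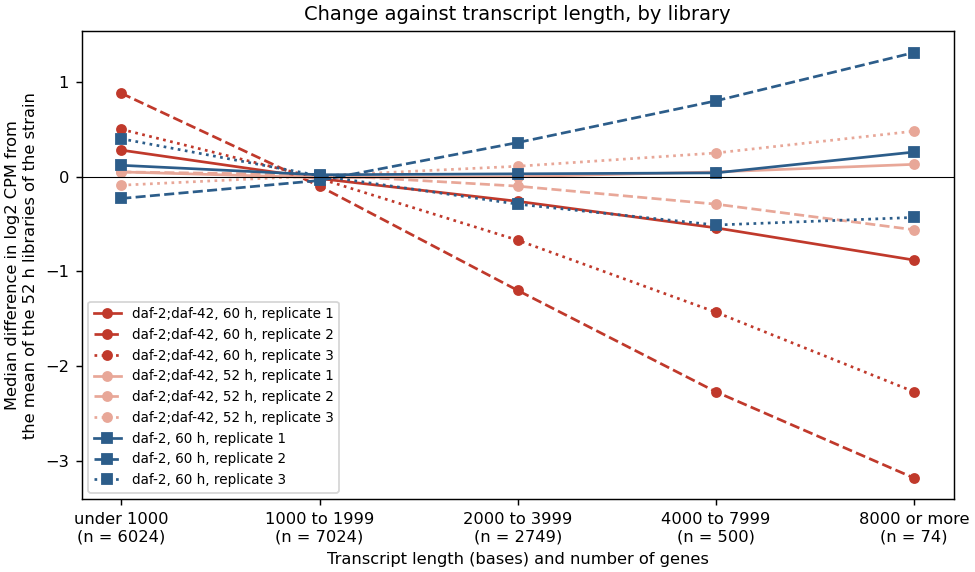
Median difference in log2 CPM from the mean of the 52 h libraries of the same strain (vertical axis) over 5 classes of transcript length (horizontal axis, with the number of genes), 1 line per library. The 3 daf-2;daf-42 libraries at 60 h fall with length, to between -0.88 and -3.18 in the longest class, while the daf-2 libraries at 60 h scatter on both sides of 0.

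Over these 8 h, 6720 of 16371 tested genes changed in daf-2;daf-42 by edgeR's quasi-likelihood test at a Benjamini-Hochberg adjusted p under 0.05, which is 41% of the genes. At 60 h 3672 were higher (22.4%) and 3048 lower (18.6%). Counts in each gene list below stand beside these shares and were not tested against them. Rises were larger than falls: 399 genes rose at least 8-fold and 24 fell at least 8-fold, and 200 rose and 2 fell at least 16-fold. The genes that rose had short transcripts, with a median of 838 bases against 2071 bases for those that fell. With length adjustment 6193 genes were called (37.8%), 3475 higher (21.2%) and 2718 lower (16.6%). Of the rises 2646 (72.1%) stayed called in that direction, and of the falls 1839 (60.3%), while 11 falls became rises. All 3 libraries at 60 h lay above all 3 at 52 h for 29.5% of tested genes and below them for 26.1%. Among called genes this held for 3599 of the 3672 rises and 2935 of the 3048 falls. Where a called gene below had times that did not overlap, that therefore adds little to its call. Without replicate 3 at 52 h 3624 genes were called, without replicate 2 at 60 h 3972, and without replicate 3 at 60 h 4437. Throughout, rose, fell or called means past that threshold in the fit over all genes, and fold changes are log2 values of 60 h over 52 h.

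The targeted gene daf-42 (WBGene00021496, chromosome IV, 7333638 to 7346851, minus strand, WBcel235) was still transcribed in the mutant. Its level was 273, 74.9 and 149 CPM at 60 h, against 879, 685 and 777 CPM at 52 h, so every 60 h library lay below every 52 h library. The log2 fold change was -2.24 ± 0.53 (SE), adjusted p = 0.00719, and -1.05 (adjusted p = 0.00335) with length adjustment. The call held in all 17 alternatives run. In daf-2 libraries the gene had 969, 1960 and 532 CPM at 60 h, against 1011, 1853 and 2078 CPM at 52 h, with a log2 fold change of -0.51 (adjusted p = 0.478) and overlapping times. The ys54 allele does not have to remove the transcript, so this level checks no label. The receptor gene daf-2 (chromosome III, 2994514 to 3040846, minus strand) had 102, 17.4 and 38.4 CPM at 60 h, against 182, 110.5 and 206 CPM at 52 h in daf-2;daf-42, a log2 fold change of -1.66 ± 0.55 (SE), adjusted p = 0.0303. That fall was not called with length adjustment, at -0.36 (adjusted p = 0.112), nor without 52 h replicate 1, 52 h replicate 3, 60 h replicate 2 or 60 h replicate 3 (adjusted p = 0.0685 to 0.0994). Reads of daf-2 were shared with other genes in 5 of the 6 libraries.

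The largest rise was in col-108, a cuticle collagen gene on chromosome IV (1768588 to 1769702, plus strand), with 227, 371 and 275 CPM at 60 h, against 0.293, 0.546 and 0.598 CPM at 52 h, a log2 fold change of 9.22 ± 0.86 (SE), adjusted p = 1.39e-05. Its 60 h values lay within a narrow range. The rule for naming the 10 largest rises and falls, given with the processing, required no overlap between the times. Separate times in these genes are therefore no result of their own. A related collagen gene, col-106, had 74.6, 89.6 and 84.6 CPM at 60 h, against 0.976, 1.17 and 0.837 CPM at 52 h, and rose by 6.38 on the log2 scale (adjusted p = 2.91e-06). The gene grl-21, of the ground-like family of hedgehog-related secreted proteins, had 288, 539 and 348 CPM at 60 h, against 3.61, 3.92 and 4.5 CPM at 52 h, with a log2 fold change of 6.61 ± 0.68 (SE), adjusted p = 2.9e-05. These 3 genes encode secreted matrix or signalling proteins. The aspartyl protease gene asp-9 had 68.2, 115 and 98.0 CPM at 60 h, against 1.01, 0.67 and 1.77 CPM at 52 h and rose by 6.34 (adjusted p = 2.83e-06). The invertebrate-type lysozyme gene ilys-2 had 61.9, 201 and 99.5 CPM at 60 h, against 1.69, 1.74 and 1.1 CPM at 52 h and rose by 6.32 (adjusted p = 3.54e-06). Both are genes for enzymes that degrade macromolecules. In daf-2 the log2 fold change was 11.6 for col-108, 5.71 for col-106 and 5.02 for grl-21, all called. There col-108 reached 2798, 1889 and 4252 CPM at 60 h. None of these 3 genes had a called interaction (adjusted p = 0.103, 0.405 and 0.170). For asp-9 and ilys-2 the interactions were called, at -2.29 (adjusted p = 0.0253) and 4.07 (adjusted p = 0.00259). That of asp-9 was lost in 4 of 12 fits that each left out 1 library. It was also lost with the replicate number as a term (adjusted p = 0.0562). The interaction of ilys-2 held in every alternative run.

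Among the 10 largest rises under the naming rule 5 were genes without a described role used here: C29F5.8, F59A6.10, C45B2.8, F45E4.5 and srlf-34. The highest CPM of these was in srlf-34, with 1180, 3759 and 2287 CPM at 60 h, against 38.5, 13.6 and 24.2 CPM at 52 h, and the lowest in C45B2.8, with 59.0, 261 and 90.8 CPM at 60 h, against 1.33, 0.546 and 1 CPM at 52 h. Their log2 fold changes lay between 6.57 in srlf-34 and 7.52 in C29F5.8. In all 5, replicate 2 at 60 h was highest and replicate 1 lowest, the same order as in the length trend, and all have transcripts under 1000 bases. Length-adjusted values stayed between 5.78 in F45E4.5 and 6.89 in C29F5.8. In daf-2 C29F5.8 and F59A6.10 rose by 7.25 and 6.95, with no interaction called. F45E4.5 rose by 3.93 in daf-2, with an interaction of 2.68 (adjusted p = 0.0197). Neither C45B2.8 (-0.43, adjusted p = 0.764) nor srlf-34 (-0.03, adjusted p = 0.978) was called in daf-2. The gene srlf-34 overlaps gcy-5, C29F5.8 overlaps glb-10 and F45E4.5 overlaps cla-1; the labels name a stranded kit, but the strand setting of the counting is not given in the sources used here, so reads of such pairs may not be told apart.

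Under the naming rule the largest fall was in mlt-11, which encodes a Kunitz-type protease inhibitor needed for molting. It had 225, 44.7 and 93.6 CPM at 60 h, against 915, 1159 and 3232 CPM at 52 h. The log2 fold change was -3.87 ± 0.77 (SE), adjusted p = 0.00288. The naming rule required every 60 h library to lie below every 52 h library. The fibrillin-like gene fbn-1 had 79.6, 8.5 and 19.5 CPM at 60 h, against 275, 208 and 549.9 CPM at 52 h and a log2 fold change of -3.27 ± 0.77 (SE), adjusted p = 0.00699. The gene mua-3, for a transmembrane protein that ties the epidermis to the cuticle, had 406, 63.3 and 126 CPM at 60 h, against 1446, 897 and 2026 CPM at 52 h and a log2 fold change of -2.88 ± 0.67 (SE), adjusted p = 0.0067. In both, replicate 1 at 60 h lay nearest to the 52 h libraries without reaching them, as the naming rule required. The other 7 were the cadherin-family genes cdh-12 at -3.48 and cdh-10 at -2.83, the C-type lectin gene clec-78 at -3.29, the unconventional myosin gene hum-4 at -2.81, and Y8A9A.2 at -3.59, F30H5.3 at -3.13 and Y55F3BR.2 at -2.81. The transcripts of these 10 genes are all over 4000 bases long, and their length-adjusted log2 fold changes, all called, were smaller, from -1.14 in mua-3 to -2.54 in Y8A9A.2. Of the 10, only the call of Y8A9A.2 was lost when a library was left out, with an adjusted p of 0.0581 without replicate 3 at 52 h.

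**Figure D2:**
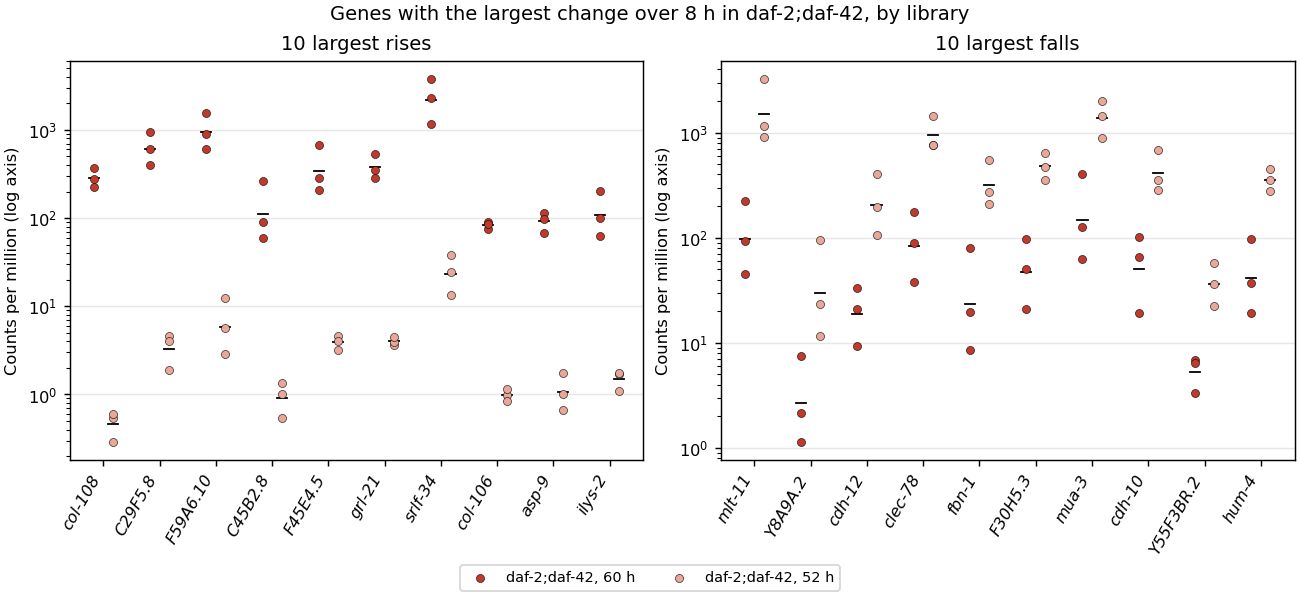
CPM on a log axis in each daf-2;daf-42 library for the 10 largest rises (left panel) and the 10 largest falls (right panel) under the naming rule. Each point is 1 library, 60 h left of 52 h for each gene, and the bar is the geometric mean. No 60 h library overlaps a 52 h library, which the rule for naming these genes required.

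The pre-cuticle, the transient apical matrix that shapes a new cuticle, fell. Of 18 tested genes in the list of apical extracellular matrix and pre-cuticle genes, 15 fell and 0 rose, with a median log2 fold change of -1.80 beside 0.00 over all genes tested. With length adjustment 13 fell and 1 rose, with a median of -1.15. Leaving out 1 library left 9 to 15 falls, with 9 without replicate 3 at 60 h. The zona pellucida domain gene noah-1 had 241, 53.8 and 94.2 CPM at 60 h, against 639, 659.9 and 1052 CPM at 52 h, a log2 fold change of -2.59 ± 0.57 (SE), adjusted p = 0.0048. Its partner noah-2 had 234.6, 53.7 and 118 CPM at 60 h, against 606, 662 and 1007 CPM at 52 h, a log2 fold change of -2.48 ± 0.52 (SE), adjusted p = 0.0038. Both kept 60 h and 52 h libraries apart, with replicate 1 highest at 60 h. The lipocalin gene lpr-3 fell (log2 fold change -2.53, adjusted p = 0.00449), and the leucine-rich repeat genes sym-1, let-4 and egg-6 fell with log2 fold changes of -2.25, -2.18 and -1.95. The mucin-like gene let-653 stood at -1.60 and dex-1, which is needed for the shape of the dauer body, at -1.65, both called. In daf-2 the same list had 11 falls and 1 rise with a median of -1.65, beside 16.2% of all genes called lower and 18.5% called higher.

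Furrow collagens, which form the circumferential furrows of the cuticle, and other body-shape collagens fell where they were called. Of 20 tested genes 9 fell and 0 rose, with a median of -1.01, and 10 fell with length adjustment. Leaving out 1 library left 3 to 13 falls, with 3 without replicate 2 or 3 at 52 h. The gene dpy-10 had 51.5, 45.5 and 60.0 CPM at 60 h, against 97.7, 158 and 156 CPM at 52 h and a log2 fold change of -1.39 ± 0.27 (SE), adjusted p = 0.00249, and dpy-8 had 83.5, 14.7 and 54.2 CPM at 60 h, against 167, 206 and 297 CPM at 52 h and a log2 fold change of -2.13 ± 0.53 (SE), adjusted p = 0.00918. Neither gene overlapped between times. In daf-2, too, 9 fell and 0 rose.

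The col family, which supplies most cuticle collagens in a stage-specific order, went mostly the other way. Of 148 tested genes 59 rose and 12 fell, with a median of 0.42, and 56 rose and 17 fell with length adjustment. With the replicate number as a term 60 rose and 26 fell. Leaving out 1 library left 47 to 59 rises and 8 to 20 falls, with 20 falls without replicate 1 at 60 h. Reads were shared with other genes for 56 of the 148. The abundant collagen gene col-37 had 15473, 28558 and 27353 CPM at 60 h, against 7025, 4490 and 3137 CPM at 52 h, a log2 fold change of 2.29 ± 0.44 (SE), adjusted p = 0.00229. Its relatives col-2 and col-40 had log2 fold changes of 1.88 and 1.66, with col-2 at 15671, 26200 and 26561 CPM at 60 h, against 8631, 5978 and 4006 CPM at 52 h. Each of these 3 was among the most abundant transcripts at both times. Larger rises were seen in col-183, at 6606, 11133 and 12508 CPM at 60 h, against 1047, 688 and 458 CPM at 52 h with a log2 fold change of 3.79 ± 0.45 (SE), adjusted p = 8.09e-05, and in col-85, at 7120, 11345 and 14569 CPM at 60 h, against 1657, 1034 and 700.1 CPM at 52 h with a log2 fold change of 3.28 ± 0.46 (SE), adjusted p = 0.000282, both with reads shared in 1 or more libraries. In col-183 and col-85 replicate 1 was the lowest of the 60 h libraries and still lay severalfold above each 52 h library. At the other end col-163 fell (log2 fold change -1.94, adjusted p = 0.00343) and col-99 (log2 fold change -1.93, adjusted p = 0.00286).

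These abundant collagens rose in both strains. In daf-2 the log2 fold change was 2.14 for col-37, 1.72 for col-2, 1.55 for col-40, 3.48 for col-183 and 3.33 for col-85, and none of the 5 had an interaction that was called. Of 13 tested genes in the list of dauer collagen and cuticle genes, 6 rose and 4 fell in daf-2;daf-42, and likewise 6 rose and 4 fell in daf-2. Length adjustment gave 6 rises and 4 falls in daf-2;daf-42. The medians were -0.73 in daf-2;daf-42 and -0.69 in daf-2. Rises in daf-2;daf-42 numbered 6 in every fit that left out 1 library, and falls 7 without replicate 1 at 60 h. The cuticlin genes cut-5 and cut-6, whose zona pellucida domain products are needed for the ridges of the dauer cuticle, fell in daf-2;daf-42, with log2 fold changes of -0.81 (adjusted p = 0.0106) and -1.05 (adjusted p = 0.00314). In daf-2 cut-5 had -2.09 (adjusted p = 1.75e-05) and cut-6 -1.81 (adjusted p = 5.42e-05), and the fall of cut-5 was smaller in daf-2;daf-42, with an interaction of 1.28 (adjusted p = 0.0218) that was lost without daf-2;daf-42 52 h replicate 1, daf-2;daf-42 60 h replicate 3, daf-2 52 h replicate 2 or daf-2 52 h replicate 3 (adjusted p = 0.0502 to 0.0594).

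Among low collagens, col-140 and the adult collagen gene col-19 were higher at 60 h in daf-2;daf-42. The gene col-140 had 13.5, 5.89 and 10.6 CPM at 60 h, against 1.53, 0.67 and 1.6 CPM at 52 h in daf-2;daf-42, and 0.679, 0.406 and 0.579 CPM at 60 h, against 1.92, 0.867 and 1.35 CPM at 52 h in daf-2. Its log2 fold change was 2.98 in daf-2;daf-42 and -1.31 in daf-2, with an interaction of 4.29 (adjusted p = 0.00145), which held in every alternative. The gene col-19 had 3.71, 4.03 and 4.87 CPM at 60 h, against 0, 0 and 0.0478 CPM at 52 h in daf-2;daf-42, so it was low at 60 h and had at most 2 counts in a library at 52 h. In daf-2 it had 0.185, 0.281 and 0.176 CPM at 60 h, against 0, 0.0289 and 0 CPM at 52 h. The interaction for col-19 was not called, at 3.53 (adjusted p = 0.244). In both strains the 60 h libraries lay above the 52 h libraries.

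Cuticlins, the insoluble cuticle components with zona pellucida domains, changed in both directions, beside 22.4% of all tested genes higher and 18.6% lower. Of 32 tested genes 10 rose and 9 fell, with a median of 0.21, and length adjustment gave 13 rises and 7 falls. The gene cutl-23 had 284, 228 and 262 CPM at 60 h, against 47.02, 30.9 and 24.4 CPM at 52 h and a log2 fold change of 2.92 ± 0.27 (SE), adjusted p = 1.16e-05, and cut-4 had 94.7, 44.4 and 103.9 CPM at 60 h, against 9.04, 4.61 and 6.32 CPM at 52 h and a log2 fold change of 3.61 ± 0.36 (SE), adjusted p = 2.32e-05. In both, the groups were far apart. The gene cut-2 rose (log2 fold change 3.35, adjusted p = 0.0012) in daf-2;daf-42 against -0.55 (adjusted p = 0.506) in daf-2, an interaction of 3.91 (adjusted p = 0.0138), with reads shared in 2 libraries.

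Enzymes that process the matrix changed in both directions, beside 22.4% of all tested genes higher and 18.6% lower. Of 28 tested astacin metalloproteases, secreted zinc proteases with roles in cuticle shedding and collagen maturation, 14 rose and 5 fell, and 15 and 5 with length adjustment; 13 to 15 rose when 1 library was left out. The gene nas-10 had 24.9, 26.1 and 25.3 CPM at 60 h, against 0, 0.298 and 0.239 CPM at 52 h, a log2 fold change of 7.03 ± 0.53 (SE), adjusted p = 3.04e-06. The ecdysis protease nas-37 had 19.9, 15.9 and 17.2 CPM at 60 h, against 6.47, 5.8 and 5.91 CPM at 52 h and rose (log2 fold change 1.55, adjusted p = 7.04e-05), and nas-36, also needed to shed the cuticle, rose (log2 fold change 1.61, adjusted p = 0.000246). All 3 rose in daf-2 as well, nas-37 more so, by 3.95 (adjusted p = 1.03e-07) with an interaction of -2.41 (adjusted p = 0.000297). By contrast nas-38, a protease linked to sleep at the molt, had 156, 173 and 216 CPM at 60 h, against 50.3, 43.7 and 37.2 CPM at 52 h in daf-2;daf-42 and 34.1, 43.6 and 31.1 CPM at 60 h, against 38.9, 46.4 and 45.5 CPM at 52 h in daf-2, an interaction of 2.32 (adjusted p = 0.000784). Likewise nas-9 rose (log2 fold change 1.56, adjusted p = 0.00341) in daf-2;daf-42 and had -0.75 (adjusted p = 0.0874) in daf-2, an interaction of 2.31 (adjusted p = 0.0104). Among 20 tested collagen and cuticle assembly enzymes 4 rose and 8 fell, as many as with length adjustment. Of these dpy-18, a prolyl 4-hydroxylase subunit for collagen, fell (log2 fold change -1.16, adjusted p = 0.00643) and dpy-11, a thioredoxin-like enzyme of the epidermis, (log2 fold change -1.01, adjusted p = 0.00781). With single libraries left out, assembly enzymes that fell numbered 5 without 52 h replicate 1 or 60 h replicate 3, 4 without 52 h replicate 2 or 60 h replicate 2 and 3 without 52 h replicate 3.

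Molting genes fell more often than they rose. Of 34 tested genes 17 fell and 5 rose, with a median of -0.75. With length adjustment 10 fell and 9 rose, so the split moved with length adjustment. The nuclear receptor gene nhr-23, which drives each molting cycle, had 16.3, 5.77 and 11.9 CPM at 60 h, against 31.9, 53.0 and 54.1 CPM at 52 h, a log2 fold change of -2.03 ± 0.36 (SE), adjusted p = 0.00137, and -1.65 (adjusted p = 0.000292) with length adjustment. The hedgehog-like gene qua-1 fell (log2 fold change -2.75, adjusted p = 0.00235), the transcription factor gene myrf-1 (log2 fold change -2.34, adjusted p = 0.00491) and mlt-9 (log2 fold change -1.92, adjusted p = 0.00282). The Kunitz-domain gene bli-5 rose, with 13.5, 45.3 and 28.2 CPM at 60 h, against 3.61, 3.22 and 2.06 CPM at 52 h and a log2 fold change of 3.29 ± 0.45 (SE), adjusted p = 0.000231. Falls and rises in these genes left no overlap between the 60 h and 52 h libraries. In daf-2 16 molting genes fell and 6 rose. The protein kinase adaptor gene mlt-3 was not called in daf-2;daf-42, at 0.23 (adjusted p = 0.307), and fell (log2 fold change -1.49, adjusted p = 5.55e-05) in daf-2, an interaction of 1.72 (adjusted p = 0.00215). For mlt-8, the values were -0.14 (adjusted p = 0.63) in daf-2;daf-42 and -1.78 (adjusted p = 0.000119) in daf-2, an interaction of 1.64 (adjusted p = 0.0121).

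Hedgehog-related and patched-related genes, an expanded nematode family expressed mostly in epidermis, split: 22 of 84 rose and 27 fell, and 24 and 25 with length adjustment. Over all tested genes 22.4% rose and 18.6% fell. The gene grd-4 had 536, 1572 and 1072 CPM at 60 h, against 47.5, 38.7 and 29.8 CPM at 52 h, a log2 fold change of 4.78 ± 0.52 (SE), adjusted p = 4.67e-05, grd-14 rose (log2 fold change 4.53, adjusted p = 2.22e-05) and grl-4 (log2 fold change 3.58, adjusted p = 5.93e-05). The patched-related gene ptr-3 rose (log2 fold change 2.53, adjusted p = 0.000119). On the other side grd-1 fell (log2 fold change -2.23, adjusted p = 0.00204), wrt-9 (log2 fold change -2.06, adjusted p = 0.00547) and grl-9, at 639, 221 and 505 CPM at 60 h, against 1943, 1575 and 1492 CPM at 52 h, (log2 fold change -1.88, adjusted p = 0.00578). All of these kept the 60 h and 52 h libraries apart, as did most called genes. Of the 84 genes, 35 fell and 19 rose in daf-2.

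Genes of the heterochronic pathway, which times larval fates, fell. Of 21 tested genes 13 fell and 1 rose, with a median of -1.44, and 9 fell and 2 rose with length adjustment, with a median of -0.51. Leaving out 1 library left 7 to 18 falls, with 7 without 52 h replicate 3, 60 h replicate 2 or 60 h replicate 3. The Period homologue lin-42, whose transcript cycles with the molts, had 165, 60.0 and 135 CPM at 60 h, against 596, 637 and 959.9 CPM at 52 h, a log2 fold change of -2.61 ± 0.53 (SE), adjusted p = 0.00319 and -2.35 (adjusted p = 0.00122) with length adjustment. The nuclear receptor gene nhr-85, a partner of that oscillator, fell (log2 fold change -2.08, adjusted p = 0.00483) with reads shared in 5 libraries, and the transcription factor gene blmp-1 fell (log2 fold change -1.60, adjusted p = 0.00974). In these 3 genes all 60 h libraries lay below all 52 h libraries. The gene mab-10, a cofactor of LIN-29, fell (log2 fold change -1.89, adjusted p = 0.00236). The single rise was lin-46, with 2.53, 3.29 and 2.06 CPM at 60 h, against 1.37, 0.422 and 0.694 CPM at 52 h and a log2 fold change of 1.69 ± 0.39 (SE), adjusted p = 0.00626. The RNA-binding protein gene lin-28, which sets the timing of early larval fates, was not called, at -0.09 (adjusted p = 0.726), with overlapping libraries. In daf-2 1 of the 21 genes fell and 2 rose, and the change was lower in daf-2;daf-42 by the interaction test for 3, daf-12, mab-10 and sea-2, beside 3.94% of all genes. The interactions were -2.23 (adjusted p = 0.0401) for daf-12, -1.72 (adjusted p = 0.0492) for mab-10 and -3.12 (adjusted p = 0.0398) for sea-2. With length adjustment they were -1.13 (adjusted p = 0.00746) for daf-12, -1.17 (adjusted p = 0.024) for mab-10 and -1.22 (adjusted p = 0.109) for sea-2, which was then not called. None of the 3 interactions was called with the replicate number as a term (adjusted p = 0.0722, 0.088 and 0.0763), and they were lost in 10, 10 and 9 of 12 leave-one-out fits, up to adjusted p-values of 0.0996, 0.116 and 0.104. The calls of daf-12 and mab-10 held only without daf-2;daf-42 60 h replicate 1 or daf-2 60 h replicate 3, and that of sea-2 also without daf-2 60 h replicate 1.

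**Figure D3:**
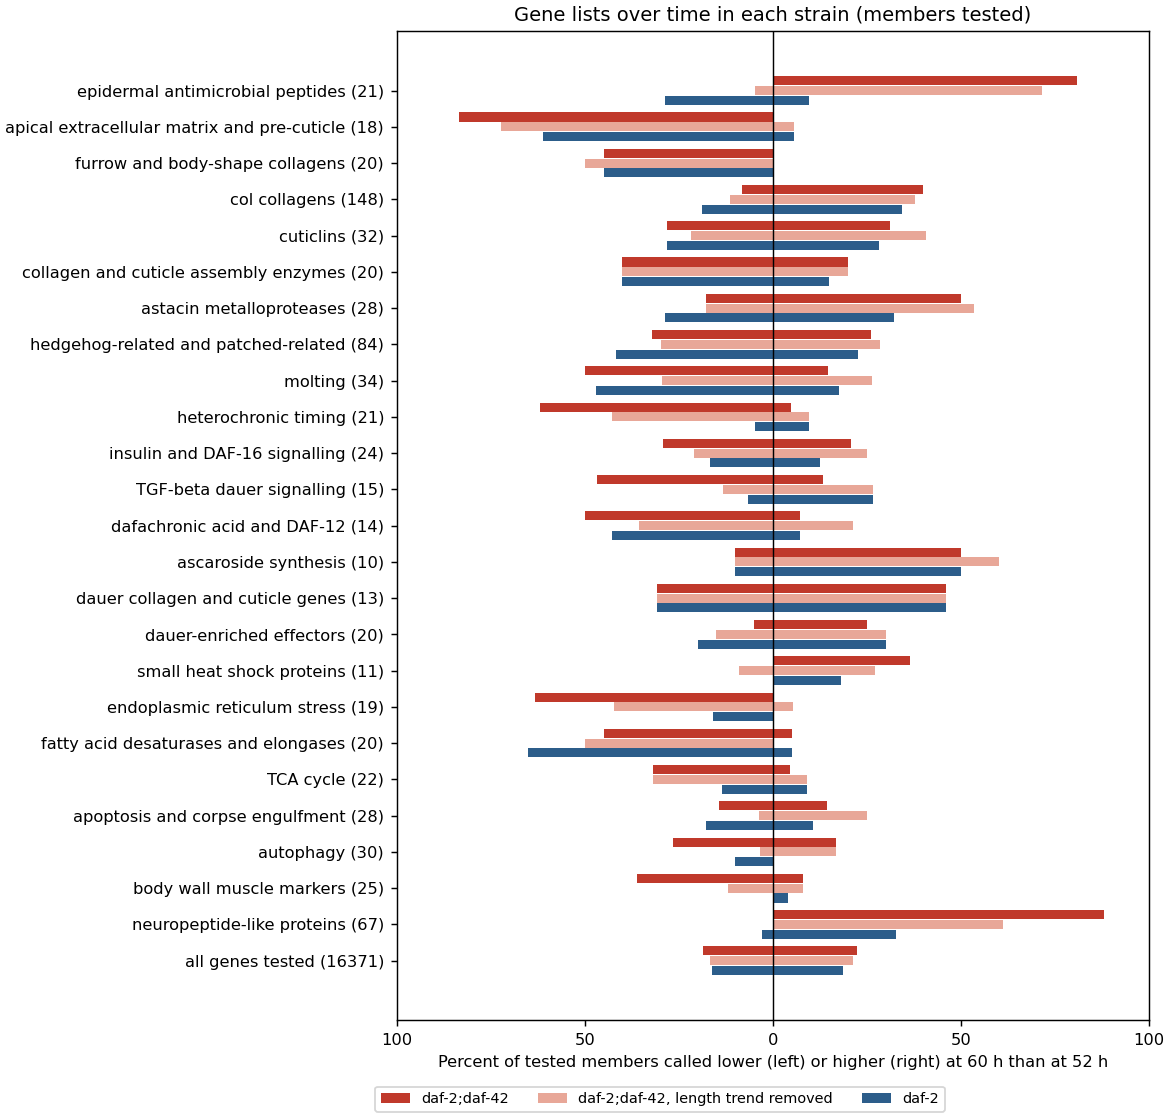
Percent of the tested members of each gene list called higher (right of 0) or lower (left of 0) at 60 h than at 52 h, for daf-2;daf-42, daf-2;daf-42 with the length trend removed, and daf-2. The bottom row gives all 16371 tested genes, of which 22.4% were higher and 18.6% lower in daf-2;daf-42.

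Dauer signalling lists held calls in both directions, beside 22.4% of all tested genes higher and 18.6% lower, and several shifted with length adjustment. In the list for insulin and DAF-16 signalling 5 of 24 rose and 7 fell, with a median of -0.29, and 6 rose and 5 fell with length adjustment. In leave-one-out fits, falls numbered 2 without 52 h replicate 1, 4 without 52 h replicate 2 and 1 without 52 h replicate 3, 60 h replicate 2 or 60 h replicate 3, and rises 3 without replicate 3 at 52 h. Of the ligands ins-6, an insulin-like agonist of dauer exit, had 3.18, 3.91 and 4.03 CPM at 60 h, against 0.228, 0.397 and 0.263 CPM at 52 h, a log2 fold change of 3.62 ± 0.33 (SE), adjusted p = 1.27e-05, and in daf-2 rose (log2 fold change 3.75, adjusted p = 3.58e-06). The peptide genes ins-28 and ins-18 rose, with log2 fold changes of 2.07 (adjusted p = 0.00229) and 1.31 (adjusted p = 0.00693). All 3 ligand genes were higher in every 60 h library, at low levels. The agonist gene daf-28 had 3.18, 1.64 and 2.22 CPM at 60 h, against 4.07, 5.8 and 5.14 CPM at 52 h and fell (log2 fold change -1.09, adjusted p = 0.0209), a call that was lost without 52 h replicate 2, 52 h replicate 3, 60 h replicate 2 or 60 h replicate 3 (adjusted p = 0.059 to 0.0742). The kinase gene pdk-1 fell (log2 fold change -1.41, adjusted p = 0.00996). The transcription factor gene daf-16, the target of the pathway, was not called, at -0.63 (adjusted p = 0.112), and stood at 0.01 with length adjustment.

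In the TGF-beta list 2 of 15 genes rose and 7 fell. With length adjustment 4 rose and 2 fell, and with the replicate number as a term 4 fell. With single libraries left out, falls numbered 2 without 52 h replicate 1 or 60 h replicate 3, 3 without 52 h replicate 2 and 1 without 52 h replicate 3 or 60 h replicate 2. The rises numbered 1 without 52 h replicate 1, 52 h replicate 2, 60 h replicate 2 or 60 h replicate 3. The ligand gene daf-7 had 78.7, 43.8 and 71.5 CPM at 60 h, against 96.9, 95.2 and 100.8 CPM at 52 h, a log2 fold change of -0.59 (adjusted p = 0.0478) that was not called with the replicate number as a term (adjusted p = 0.0653) and was lost without 52 h replicate 1, 52 h replicate 2, 52 h replicate 3, 60 h replicate 2 or 60 h replicate 3 (adjusted p = 0.0723 to 0.133). The secreted protein gene hen-1 rose in all 60 h libraries, with 14.9, 36.8 and 23.1 CPM at 60 h, against 3.35, 3.42 and 3.35 CPM at 52 h and a log2 fold change of 2.88 ± 0.32 (SE), adjusted p = 5.25e-05. Among 14 genes of dafachronic acid synthesis and DAF-12 function 1 rose and 7 fell, and 3 rose and 5 fell with length adjustment; 3 fell without replicate 3 at 52 h, and the rises numbered 0 without 52 h replicate 1, 52 h replicate 2, 52 h replicate 3 or 60 h replicate 1. The co-repressor gene din-1, whose product acts with DAF-12, had 253, 68.5 and 142 CPM at 60 h, against 589, 446 and 681 CPM at 52 h and fell (log2 fold change -1.89, adjusted p = 0.0107). The receptor gene daf-12 had 199.8, 59.4 and 100.4 CPM at 60 h, against 303, 281 and 428 CPM at 52 h and fell (log2 fold change -1.49, adjusted p = 0.018), without overlap. That call was lost without 52 h replicate 3, 60 h replicate 2 or 60 h replicate 3 (adjusted p = 0.0576 to 0.0689). The hormone-synthesis gene daf-9 was not called, at 0.31 (adjusted p = 0.307), and was higher with length adjustment, at 0.66 (adjusted p = 0.0266).

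In ascaroside synthesis, the peroxisomal pathway that makes dauer pheromone, 5 of 10 genes rose and 1 fell, the same counts as in daf-2, and length adjustment gave 6 rises and 1 fall. Falls numbered 2 without 60 h replicate 1. In daf-2;daf-42 and daf-2 the list had medians of 0.59 and 0.54. The acyl-CoA synthetase gene acs-7 had 69.1, 69.8 and 69.2 CPM at 60 h, against 29.4, 31.8 and 20.6 CPM at 52 h, a log2 fold change of 1.35 ± 0.19 (SE), adjusted p = 0.000351. The dehydrogenase gene dhs-28 rose (log2 fold change 1.1, adjusted p = 0.00159) and the oxidase gene acox-3 (log2 fold change 0.91, adjusted p = 0.00646). The 60 h values of acs-7 were almost equal and all above the 52 h values. The 1 fall was pod-2, an acetyl-CoA carboxylase gene, with 514, 80.8 and 256 CPM at 60 h, against 1403, 1157 and 2497 CPM at 52 h and a log2 fold change of -2.57 ± 0.60 (SE), adjusted p = 0.00673.

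Epidermal antimicrobial peptide genes, the nlp and caenacin (cnc) genes that the epidermis switches on after fungal infection or wounding, rose together. Of 21 tested genes 17 rose and 0 fell, with a median log2 fold change of 2.98 beside 0.00 over all genes. With length adjustment 15 rose and 1 fell (cnc-3), with a median of 1.86, and 15 to 20 rose when 1 library was left out. The summed level of the 21 genes was 2567, 8209 and 4644 CPM at 60 h, against 1492, 1350 and 1103 CPM at 52 h. Replicate 2 was highest and replicate 1 lowest at 60 h, which is also the order of the length trend, and the median transcript of the list is 356 bases long. The gene cnc-4 had 290.3, 1188 and 538 CPM at 60 h, against 29.4, 19.02 and 23.6 CPM at 52 h, a log2 fold change of 4.81 ± 0.57 (SE), adjusted p = 8.09e-05, or 28.01-fold. The gene nlp-29, the usual reporter of epidermal infection and injury, had 97.2, 359 and 179 CPM at 60 h, against 21.5, 16.22 and 17.9 CPM at 52 h, a log2 fold change of 3.52 ± 0.47 (SE), adjusted p = 0.000187, with reads shared in 1 library. The gene nlp-32 had 12.21, 45.7 and 32.8 CPM at 60 h, against 1.43, 1.41 and 0.933 CPM at 52 h and a log2 fold change of 4.59 ± 0.48 (SE), adjusted p = 2.98e-05. In all 3 genes even the lowest 60 h library was severalfold above the highest 52 h library. Their length-adjusted log2 fold changes were 3.85, 2.49 and 3.62.

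Further members spanned a wide range. Rises of over 3 on the log2 scale were seen in nlp-27 (3.26), nlp-34 (3.19), cnc-2 (3.24), nlp-26 (3.13) and nlp-30 (3.02). Smaller ones were seen in nlp-25 (2.54), cnc-11 (2.98), cnc-7 (2.95), nlp-31 (1.77) and cnc-10 (1.54). Others came from transcripts that were nearly absent at 52 h: cnc-6 had 5.41, 7.75 and 3.22 CPM at 60 h, against 0, 0.0992 and 0.0718 CPM at 52 h, and cnc-1 had 1.02, 2.36 and 0.92 CPM at 60 h, against 0.065, 0.0248 and 0.0478 CPM at 52 h. The rises of nlp-33 at 1.60 (adjusted p = 0.0119) and cnc-8 at 1.36 (adjusted p = 0.032) were lost with length adjustment, at 0.59 and 0.25. The rise of nlp-33 was also lost without 52 h replicate 3 or 60 h replicate 2 (adjusted p = 0.0514 to 0.0516), and that of cnc-8 without 52 h replicate 1, 52 h replicate 2, 52 h replicate 3, 60 h replicate 2 or 60 h replicate 3 (adjusted p = 0.0552 to 0.174). The rise of cnc-8 was likewise not called with the replicate number as a term, with an adjusted p of 0.0541. Not called were nlp-24 at 0.80 (adjusted p = 0.0889), nlp-28 at 1.07 (adjusted p = 0.0529), cnc-9 at 1.01 (adjusted p = 0.065) and cnc-3 at -0.07 (adjusted p = 0.885).

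In daf-2 2 of the same 21 genes rose and 6 fell, with a median of -0.30. For 12 of the 21 the change over time was higher in daf-2;daf-42 by the interaction test and for 0 it was lower, beside 5.58% of all genes higher and 3.94% lower. The gene cnc-4 had 6.97, 4.15 and 12.8 CPM at 60 h, against 22.7, 14.5 and 27.4 CPM at 52 h in daf-2, and its interaction was 6.24 (adjusted p = 0.00059). The gene nlp-29 had 6.38, 2.75 and 6.01 CPM at 60 h, against 14.1, 8.53 and 8.32 CPM at 52 h in daf-2, and its interaction was 4.54 (adjusted p = 0.00154). In daf-2 both genes were lower in each 60 h library than in each 52 h library, the opposite of daf-2;daf-42. For cnc-2 the interaction was 5.07 (adjusted p = 0.00376), for nlp-32 4.04 (adjusted p = 0.00371), for nlp-30 3.94 (adjusted p = 0.00182) and for nlp-27 3.16 (adjusted p = 0.0103), and these 4 calls, like those of cnc-4 and nlp-29, held in every alternative run.

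**Figure D4:**
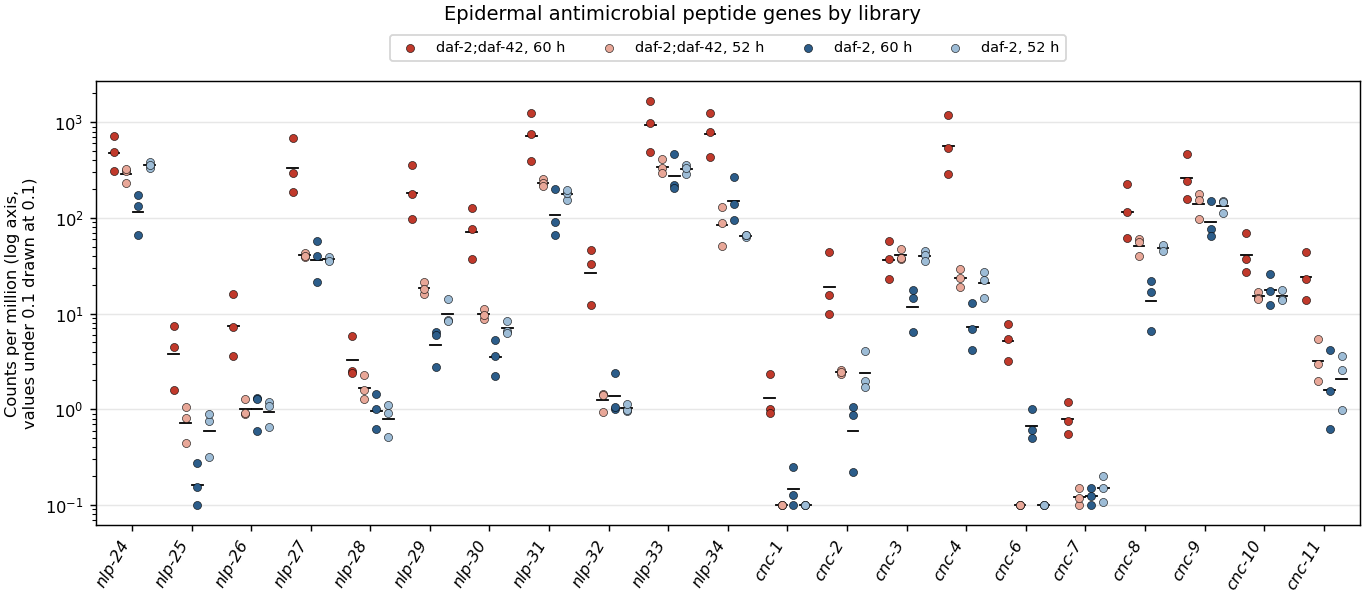
CPM on a log axis (values under 0.1 drawn at 0.1) of the 21 tested epidermal antimicrobial peptide genes in all 12 libraries. For each gene the groups run daf-2;daf-42 at 60 h, daf-2;daf-42 at 52 h, daf-2 at 60 h and daf-2 at 52 h, each point is a library and each bar a geometric mean; for most genes the 3 daf-2;daf-42 libraries at 60 h are the highest of the 12.

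Other defence genes changed in both directions, as did all tested genes, with 22.4% higher and 18.6% lower. Of 13 tested lysozyme genes 5 rose and 0 fell, with 5 rises in each fit that left out 1 library. Length adjustment gave 5 rises and 2 falls, with a median of -0.17, and in daf-2 3 rose and 4 fell. The gene ilys-3 had 162, 514 and 291 CPM at 60 h, against 7.9, 8.68 and 7.18 CPM at 52 h, a log2 fold change of 5.35 ± 0.43 (SE), adjusted p = 4.77e-06, and in daf-2 it rose (log2 fold change 5.28, adjusted p = 2.74e-06). The change of ilys-2, given above, was larger in daf-2;daf-42 than in daf-2, with an interaction of 4.07 (adjusted p = 0.00259). C-type lectins, a large family of carbohydrate-binding secreted proteins, had 25 rises and 27 falls among 133 tested genes, against 15 rises and 60 falls in daf-2. Length adjustment gave 21 rises and 40 falls in daf-2;daf-42, a larger share of falls. In leave-one-out fits, lectin falls numbered 17 without 52 h replicate 2, 52 h replicate 3, 60 h replicate 2 or 60 h replicate 3. The gene clec-101 had 577, 1063 and 1117 CPM at 60 h, against 90.3, 65.7 and 49.05 CPM at 52 h and rose (log2 fold change 3.75, adjusted p = 1.86e-05), while clec-180 fell (log2 fold change -2.07, adjusted p = 0.00227). Cytochrome P450 genes, which oxidise xenobiotics and steroids, had 16 rises and 17 falls among 73, and 20 rises and 13 falls with length adjustment. Their rises numbered 10 without 60 h replicate 2, and their falls 9 without 52 h replicate 2 or 60 h replicate 2 and 6 without 52 h replicate 3. The gene cyp-14A5 had 192, 342 and 286 CPM at 60 h, against 18.8, 19.6 and 13.9 CPM at 52 h in daf-2;daf-42 and 24.03, 22.4 and 25.9 CPM at 60 h, against 12.5, 13.7 and 14.2 CPM at 52 h in daf-2. Its log2 fold change was 3.97 ± 0.25 (SE), adjusted p = 1.37e-06, with an interaction of 3.13 (adjusted p = 0.000269) that held in every alternative run. In neither strain did the times overlap, and the daf-2;daf-42 libraries at 60 h stood apart from the other 9.

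Stress lists held calls in both directions, beside 22.4% of all tested genes higher and 18.6% lower. Small heat shock proteins had 4 rises and 0 falls among 11 genes, and 3 rises and 1 fall with length adjustment. The rises numbered 1 without 52 h replicate 1, 52 h replicate 2 or 60 h replicate 2 and 2 without 52 h replicate 3. The gene hsp-12.6, a small heat shock gene high in dauers and a target of DAF-16, had 130.1, 337 and 161 CPM at 60 h, against 11.5, 8.76 and 6.63 CPM at 52 h, a log2 fold change of 4.55 ± 0.50 (SE), adjusted p = 5.08e-05. In daf-2 it rose (log2 fold change 4.52, adjusted p = 3.25e-05). Of 14 genes of the cytosolic heat shock response 0 rose and 2 fell by edgeR's test, with 0 rises also by DESeq2. Length adjustment gave 0 rises and 1 fall, and the falls numbered 1 without 52 h replicate 1, 52 h replicate 2, 60 h replicate 2 or 60 h replicate 3, 0 without 52 h replicate 3 and 4 without 60 h replicate 1. Chaperones and sensors of endoplasmic reticulum stress had 0 rises and 12 falls among 19, and 1 rise and 8 falls with length adjustment. With single libraries left out, those falls numbered 4 without 52 h replicate 3, 6 without 60 h replicate 2 and 7 without 60 h replicate 3. The chaperone gene hsp-4, the standard reporter of the unfolded protein response, had 293, 173 and 303 CPM at 60 h, against 451, 499 and 714 CPM at 52 h, a log2 fold change of -1.11 (adjusted p = 0.016), and -0.66 (adjusted p = 0.0693) with length adjustment. The call of hsp-4 was also lost without 52 h replicate 3 or 60 h replicate 2 (adjusted p = 0.0581 to 0.0756).

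Mitochondrial stress genes had 3 rises and 3 falls among 12, and 2 rises and 2 falls with length adjustment. Over all tested genes 22.4% rose and 18.6% fell. The rises numbered 1 without 52 h replicate 1, 52 h replicate 2, 52 h replicate 3 or 60 h replicate 3, and the falls 1 without 52 h replicate 1, 52 h replicate 3, 60 h replicate 2 or 60 h replicate 3. Antioxidant genes and metallothioneins had 7 rises and 2 falls among 26, and 6 rises and 2 falls with length adjustment. There were 4 rises without replicate 3 at 52 h, and the falls numbered 1 without 52 h replicate 3, 60 h replicate 2 or 60 h replicate 3. The superoxide dismutase gene sod-5 had 46.1, 98.7 and 62.8 CPM at 60 h, against 5.95, 3.55 and 4.21 CPM at 52 h, a log2 fold change of 3.92 ± 0.40 (SE), adjusted p = 2.8e-05. The metallothionein gene mtl-1 had 558, 1491 and 848 CPM at 60 h, against 220.2, 209 and 229 CPM at 52 h, a log2 fold change of 2.14 ± 0.39 (SE), adjusted p = 0.00185. The osmotic stress gene gpdh-1, whose product works in glycerol synthesis, had 61.5, 111 and 122 CPM at 60 h, against 17.4, 17.01 and 17.3 CPM at 52 h, a log2 fold change of 2.51 ± 0.47 (SE), adjusted p = 0.00206. In these 3 genes every 60 h library lay above every 52 h library. The DAF-16 target sod-3 was not called, at 0.21 (adjusted p = 0.498), with overlapping libraries. Among 20 dauer-enriched effector genes 5 rose and 1 fell, against 6 rises and 4 falls in daf-2. Length adjustment gave 6 rises and 3 falls, and 2 fell with the replicate number as a term. Effectors that fell numbered 2 without 52 h replicate 2 and 4 without 60 h replicate 1.

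Of 5 metabolic lists 4 held more falls than rises, while over all tested genes 22.4% rose and 18.6% fell. Fatty acid desaturases and elongases had 1 rise and 9 falls among 20, against 1 rise and 13 falls in daf-2. Length adjustment gave 0 rises and 10 falls in daf-2;daf-42. The elongase gene elo-4 was not called in daf-2;daf-42, at -0.48 (adjusted p = 0.164), and fell in daf-2 (log2 fold change -2.26, adjusted p = 6.73e-05), an interaction of 1.78 (adjusted p = 0.0163). Lipases and fatty acid oxidation genes had 3 rises and 12 falls among 32, and 4 rises and 8 falls with length adjustment. The lysosomal lipase gene lipl-4 had 39.7, 67.9 and 50.8 CPM at 60 h, against 14.4, 12.57 and 10.9 CPM at 52 h and rose (log2 fold change 2.06, adjusted p = 8.99e-05), and lipl-6 fell (log2 fold change -1.84, adjusted p = 0.00133). Both lipases kept the times apart, in opposite directions. The TCA cycle list had 1 rise and 7 falls among 22, and the list for glycolysis, gluconeogenesis and the glyoxylate pathway 1 rise and 5 falls among 24. With length adjustment there were 2 rises and 7 falls in the TCA cycle list and 2 rises and 7 falls in the other. The glyceraldehyde-3-phosphate dehydrogenase gene gpd-2 fell (log2 fold change -1.33, adjusted p = 0.0103), with reads shared in 4 libraries. Desiccation and trehalose genes had 3 rises and 3 falls among 15, with 1 fall with the replicate number as a term and 3 rises and 1 fall with length adjustment. Their falls numbered 1 without 52 h replicate 2, 52 h replicate 3, 60 h replicate 2 or 60 h replicate 3. In leave-one-out fits, falls numbered 5 without 52 h replicate 2 or 60 h replicate 2 and 3 without 52 h replicate 3 or 60 h replicate 3 among desaturases and elongases. For lipases and fatty acid oxidation they numbered 6 without 52 h replicate 2, 52 h replicate 3 or 60 h replicate 2 and 7 without 60 h replicate 3. For the TCA cycle they numbered 2 without 52 h replicate 1 or 60 h replicate 3, 0 without 52 h replicate 3, 12 without 60 h replicate 1 and 1 without 60 h replicate 2. For glycolysis and its companions they numbered 1 without 52 h replicate 3 or 60 h replicate 2, 10 without 60 h replicate 1 and 2 without 60 h replicate 3. The single rises numbered 0 without 52 h replicate 1, 52 h replicate 2, 52 h replicate 3, 60 h replicate 1 or 60 h replicate 3 for desaturases and elongases, 0 without 60 h replicate 3 for the TCA cycle and 0 without 52 h replicate 1, 52 h replicate 2, 52 h replicate 3, 60 h replicate 1 or 60 h replicate 3 for glycolysis and its companions.

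Genes of cell death and clearance were called in both directions, beside 22.4% of all tested genes higher and 18.6% lower. Of 28 tested genes for apoptosis and corpse engulfment 4 rose and 4 fell, and 7 rose and 1 fell with length adjustment. With single libraries left out, the rises numbered 2 without 52 h replicate 1, 52 h replicate 2, 52 h replicate 3, 60 h replicate 2 or 60 h replicate 3, and the falls 0 without 52 h replicate 3 and 1 without 60 h replicate 2. The caspase gene ced-3 was not called, at -0.75 (adjusted p = 0.0752), nor was its activator ced-4, at -0.11 (adjusted p = 0.658). The trigger of apoptosis, egl-1, had 0.853, 0.465 and 0.352 CPM at 60 h, against 0.358, 0.223 and 0.215 CPM at 52 h and was not called, at 1.07 (adjusted p = 0.0923). The nuclease gene crn-2 had 17.2, 28.6 and 18 CPM at 60 h, against 7.97, 9.1 and 7.44 CPM at 52 h in daf-2;daf-42 and rose (log2 fold change 1.38, adjusted p = 0.000442). In daf-2 crn-2 stood at -0.21 (adjusted p = 0.481), an interaction of 1.58 (adjusted p = 0.00772). The bridging-protein gene ttr-52, which helps engulfing cells bind dying ones, had 5.91, 9.37 and 6.2 CPM at 60 h, against 3.54, 1.93 and 1.68 CPM at 52 h and rose (log2 fold change 1.59, adjusted p = 0.00259). Both crn-2 and ttr-52 were higher in each 60 h library than in any 52 h library.

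Necrosis-associated proteases and calcium genes had 2 rises and 7 falls among 24, and 1 rise with the replicate number as a term. Length adjustment gave 4 rises and 6 falls. Rises numbered 1 without 52 h replicate 1, 52 h replicate 2, 52 h replicate 3, 60 h replicate 2 or 60 h replicate 3, and falls 4 without 52 h replicate 3 and 13 without 60 h replicate 1. The lysosomal protease gene asp-3 fell (log2 fold change -1.07, adjusted p = 0.00769), and srp-6, an inhibitor of proteases that protects against necrosis, rose (log2 fold change 1.15, adjusted p = 0.000688), with reads shared in all 6 libraries. Autophagy genes had 5 rises and 8 falls among 30, beside 22.4% of all tested genes higher and 18.6% lower. With length adjustment 5 rose and 1 fell, and with the replicate number as a term 3 rose and 6 fell. In leave-one-out fits, autophagy rises numbered 3 without 52 h replicate 1, 1 without 52 h replicate 2 or 60 h replicate 3 and 2 without 52 h replicate 3 or 60 h replicate 2, and falls 5 without 52 h replicate 1 or 52 h replicate 2, 1 without 52 h replicate 3 and 2 without 60 h replicate 2 or 60 h replicate 3. The gene lgg-1, whose product coats autophagosomes, had 1136, 2097 and 1774 CPM at 60 h, against 589.5, 571 and 549 CPM at 52 h, a log2 fold change of 1.55 ± 0.38 (SE), adjusted p = 0.0082, with no overlap.

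Neuropeptide genes rose in large number. Of 30 tested FMRFamide-like (flp) genes 27 rose and 0 fell, and of 67 tested neuropeptide-like (nlp) genes 59 rose and 0 fell. The median log2 fold change was 1.29 in the flp list and 1.3 in the nlp list. With length adjustment 23 flp and 41 nlp genes rose and 0 fell, with medians of 0.64 and 0.58. The peptide gene flp-25 had 23.9, 49.9 and 32.9 CPM at 60 h, against 10.7, 8.43 and 5.98 CPM at 52 h, a log2 fold change of 2.09 ± 0.39 (SE), adjusted p = 0.00208. The gene flp-32 had 51.8, 127 and 77.7 CPM at 60 h, against 26.1, 22.6 and 18.7 CPM at 52 h, a log2 fold change of 1.93 ± 0.37 (SE), adjusted p = 0.00217. The gene nlp-52 had 15.1, 40.01 and 18.03 CPM at 60 h, against 4.2, 3.15 and 2.25 CPM at 52 h, a log2 fold change of 2.94 ± 0.49 (SE), adjusted p = 0.000951. In each of the 3 the order at 60 h was replicate 2, then 3, then 1, as in the length trend. The median flp transcript is 595 bases long, against 1207 bases over all genes, and 11 nlp genes are also in the antimicrobial list. In daf-2 11 flp genes rose and 0 fell, and 22 nlp genes rose and 2 fell. By edgeR's interaction test 0 of the 30 flp genes were called, with 1 at an unadjusted p under 0.05 and 0 by DESeq2. Of the 67 nlp genes 9 had a higher and 1 a lower change in daf-2;daf-42, beside 5.58% of all genes higher and 3.94% lower. Those 9 include nlp-24, nlp-25, nlp-26, nlp-27, nlp-29, nlp-30, nlp-31 and nlp-32, which are also in the antimicrobial list. The count therefore mostly repeats the antimicrobial result. General neuron markers gave 2 rises and 6 falls among 25, and 3 rises and 1 fall with length adjustment. Over all tested genes 22.4% rose and 18.6% fell. The sensory cilium list had 4 rises and 6 falls among 34, and 9 rises and 0 falls with length adjustment. With single libraries left out, neuron markers that fell numbered 1 without 52 h replicate 1, 52 h replicate 3, 60 h replicate 2 or 60 h replicate 3. Those that rose numbered 1 without 52 h replicate 1, 52 h replicate 2 or 60 h replicate 2, 0 without 52 h replicate 3 and 5 without 60 h replicate 1. For the cilium list rises numbered 1 without 52 h replicate 2 or 52 h replicate 3 and 2 without 60 h replicate 2, and falls 2 without 52 h replicate 1, 1 without 52 h replicate 3, 60 h replicate 2 or 60 h replicate 3 and 14 without 60 h replicate 1.

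Tissue markers were called in both directions, beside 22.4% of all tested genes higher and 18.6% lower. Body wall muscle markers had 2 rises and 9 falls among 25, and 2 rises and 3 falls with length adjustment, with 1 rise with the replicate number as a term. Their summed level was 35660, 19183 and 29964 CPM at 60 h, against 48864, 34291 and 55880 CPM at 52 h. Muscle rises numbered 1 without 52 h replicate 1, 52 h replicate 2, 52 h replicate 3, 60 h replicate 2 or 60 h replicate 3 and 4 without 60 h replicate 1. Muscle falls numbered 4 without 52 h replicate 1, 1 without 52 h replicate 3 or 60 h replicate 3 and 2 without 60 h replicate 2. The muscle gene unc-22, for the giant kinase twitchin, had 782, 149 and 318 CPM at 60 h, against 1883, 1353 and 3646 CPM at 52 h, a log2 fold change of -2.46 (adjusted p = 0.0165), and 0.12 (adjusted p = 0.71) with length adjustment. That call was lost without 52 h replicate 3, 60 h replicate 2 or 60 h replicate 3 (adjusted p = 0.0556 to 0.069). Hypodermis markers had 1 rise and 7 falls among 17, as many as with length adjustment, with 2 rises with the replicate number as a term and 11 falls without replicate 1 at 60 h, and summed to 2206, 843 and 1204 CPM at 60 h, against 5074, 3026 and 3918 CPM at 52 h. In hypodermis the 60 h sums all lay below the 52 h sums, and in muscle they overlapped. In daf-2 hypodermis markers had 2 rises and 7 falls. Their sums there were 2429, 1815 and 1096 CPM at 60 h, against 4255, 3084 and 2993 CPM at 52 h, also without overlap. Muscle markers in daf-2 had 1 rise and 0 falls. The hypodermis list includes dpy-10, nhr-23 and nas-37, which also appear among the collagen, molting and protease genes above. The part of these tissue sums in the cuticle results was not tested.

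Intestine markers had 4 rises and 4 falls among 15, and pharynx markers 4 rises and 3 falls among 18. Over all tested genes 22.4% rose and 18.6% fell. With length adjustment intestine markers had 6 rises and 5 falls and pharynx markers 4 rises and 4 falls. The intestinal protease gene cpr-1 fell (log2 fold change -1.29, adjusted p = 0.00495), and the intestinal aquaporin gene aqp-4 rose (log2 fold change 2.55, adjusted p = 2.32e-05). The pharyngeal gland gene phat-2 had 109.7, 169 and 173 CPM at 60 h, against 16.39, 10.8 and 8.73 CPM at 52 h and rose (log2 fold change 3.65, adjusted p = 2.48e-05), without overlap. Pharynx falls numbered 0 without 52 h replicate 3 or 60 h replicate 3, 6 without 60 h replicate 1 and 1 without 60 h replicate 2. Germ line and embryo markers had 3 rises and 0 falls among 25, and 6 rises and 0 falls with length adjustment. There was 1 rise without replicate 3 at 60 h, and falls numbered 4 without 60 h replicate 1 and 1 without 60 h replicate 3. Germ line and embryo markers summed to 220.1 to 375.7 CPM at 60 h, against 365.3 to 427.2 CPM at 52 h. Adult markers had 2 rises and 2 falls among the 7 that passed the filter on low counts, as many as with length adjustment. Falls numbered 1 without 52 h replicate 1, 52 h replicate 2, 52 h replicate 3 or 60 h replicate 3 and 0 without 60 h replicate 2. Adult markers summed to 11.9 to 13.5 CPM at 60 h, against 7.7 to 10.3 CPM at 52 h.

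Housekeeping lists shifted with length adjustment. Without it 22.4% of all tested genes rose and 18.6% fell. Cytosolic ribosomal protein genes had 27 rises and 0 falls among 81, but 2 and 2 with length adjustment, and 11 rises and 6 falls with the replicate number as a term. In leave-one-out fits, ribosomal rises numbered 9 without 52 h replicate 1 or 60 h replicate 3, 3 without 52 h replicate 2 and 2 without 52 h replicate 3 or 60 h replicate 2, with 8 falls without replicate 1 at 60 h. Histone genes had 19 rises and 4 falls among 61, and 13 rises and 21 falls with length adjustment, with reads shared for 52 of them. Histone falls numbered 0 without 52 h replicate 1, 52 h replicate 2, 52 h replicate 3 or 60 h replicate 3 and 1 without 60 h replicate 2. Transcripts encoded by the mitochondrial genome had 4 rises and 0 falls among 12, and 3 rises and 0 falls with length adjustment, with 2 rises without replicate 3 at 52 h or replicate 2 at 60 h. Genes for DNA replication and the cell cycle had 2 rises and 9 falls among 34, and 5 rises and 4 falls with length adjustment. Rises numbered 1 without 52 h replicate 2 or 52 h replicate 3, and falls 5 without 52 h replicate 1, 1 without 52 h replicate 2 or 52 h replicate 3, 17 without 60 h replicate 1 and 2 without 60 h replicate 2 or 60 h replicate 3.

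In daf-2 5688 genes changed between the times (34.7%), 3032 higher and 2656 lower. Of the 3032 that rose in daf-2, 1725 (56.9%) rose in daf-2;daf-42 and 36 fell. Their median log2 fold change was 0.85 in daf-2;daf-42, with 0.71, 0.93 and 0.83 in replicates 1 to 3, against 1.3 in daf-2. Of the 2656 that fell in daf-2, 1096 (41.3%) fell in daf-2;daf-42 and 69 rose. Their median was -0.51 in daf-2;daf-42, against -1.3 in daf-2. These classes were chosen on daf-2, so the daf-2 medians are a description and are high in size by that choice. Of the 3672 rises in daf-2;daf-42 1878 (51.1%) were not called in daf-2, and of the 3048 falls 1916 (62.9%) were not. Over all 16371 tested genes 10683 were not called in daf-2. A missing call in daf-2 does not test a difference between the strains. By the interaction test, described next, 403 of the rises (11%) were higher in daf-2;daf-42 and 118 (3.2%) lower. Of the falls 147 (4.8%) were lower and 106 (3.5%) higher.

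The change over time itself differed between the strains for 1558 genes (9.52%) by the interaction test, 913 higher (5.58%) and 645 lower (3.94%) in daf-2;daf-42. That count was 921 with the replicate number as a term. Leaving out daf-2;daf-42 60 h replicate 1 gave 4670, leaving out daf-2 60 h replicate 3 gave 4136, and 643 to 1054 without any other single library.

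The 5 largest positive interactions under the naming rule were in C45B2.8, C45B2.2, srlf-34, cnc-4 and W02D9.6. The genes C45B2.2 (6084739 to 6085189) and C45B2.8 (6087976 to 6088412) lie close together on chromosome X. In daf-2;daf-42 C45B2.2 had 444, 1472 and 723 CPM at 60 h, against 21.2, 16.3 and 15.4 CPM at 52 h, and in daf-2 4.29, 1.78 and 4.28 CPM at 60 h, against 9.99, 6.16 and 6.53 CPM at 52 h. Its log2 fold change was 5.64 in daf-2;daf-42 and -1.13 in daf-2, an interaction of 6.77 (adjusted p = 0.000211). In daf-2 C45B2.8 had 0.154, 0.156 and 0.126 CPM at 60 h, against 0.328, 0.0289 and 0.217 CPM at 52 h, an interaction of 7.60 (adjusted p = 0.00262). In these neighbours the daf-2;daf-42 libraries at 60 h were the highest of the 12. In daf-2 srlf-34 had 11.1, 4.62 and 15.5 CPM at 60 h, against 22.8, 3.99 and 5.17 CPM at 52 h, an interaction of 6.6 (adjusted p = 0.00332). For W02D9.6 the levels were 65.6, 196 and 118.8 CPM at 60 h, against 5.72, 4.12 and 5.53 CPM at 52 h in daf-2;daf-42 and 1.79, 1.16 and 8.23 CPM at 60 h, against 3.38, 3.64 and 6.96 CPM at 52 h in daf-2, an interaction of 4.94 (adjusted p = 0.00723). All 5 interactions held in every alternative run. In none of the 5 genes did a daf-2 library at 60 h reach a daf-2;daf-42 library at 60 h. The 5 genes were chosen for large called interactions, which favours such separation.

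The 5 largest negative interactions under that rule were in anc-1, scl-12, scl-13, frm-1 and vab-10. The genes scl-12 and scl-13, which encode secreted proteins of the SCP family and lie on chromosome V, rose in both strains, and by less in daf-2;daf-42. In daf-2;daf-42 scl-12 had 64.3, 118 and 89.5 CPM at 60 h, against 7.02, 6.45 and 9.02 CPM at 52 h, and in daf-2 2513, 2217 and 3208 CPM at 60 h, against 11.4, 10.4 and 12.7 CPM at 52 h. Its log2 fold change was 3.59 in daf-2;daf-42 and 7.85 in daf-2, an interaction of -4.25 (adjusted p = 0.000202). For scl-13 the log2 fold changes were 3.93 in daf-2;daf-42 and 8.07 in daf-2, an interaction of -4.14 (adjusted p = 0.000316). Both interactions held in every alternative run. The other 3 have transcripts over 8000 bases: anc-1, for a nuclear anchorage protein, vab-10, for a spectraplakin of epidermal attachments, and frm-1, for a FERM-domain protein. Their log2 fold changes in daf-2;daf-42 were -2.80 (adjusted p = 0.0238) for anc-1, -2.12 (adjusted p = 0.0218) for vab-10 and -2.07 (adjusted p = 0.0343) for frm-1, and none was called with length adjustment, at -0.30, -0.07 and 0.35. The call of frm-1 was also lost with the replicate number as a term (adjusted p = 0.0653). With single libraries left out, anc-1 was not called without 52 h replicate 3, 60 h replicate 2 or 60 h replicate 3 (adjusted p = 0.0722 to 0.0951). The gene vab-10 was not called without 52 h replicate 3, 60 h replicate 2 or 60 h replicate 3 (adjusted p = 0.0717 to 0.0859), and frm-1 was not called without 52 h replicate 1, 52 h replicate 3, 60 h replicate 2 or 60 h replicate 3 (adjusted p = 0.055 to 0.139). The interactions were -4.29 (adjusted p = 0.0443) for anc-1, -3.57 (adjusted p = 0.0313) for vab-10 and -3.80 (adjusted p = 0.0344) for frm-1. With length adjustment they were smaller in size, at -0.95 (adjusted p = 0.0565) for anc-1, -0.95 (adjusted p = 0.0483) for vab-10 and -0.73 (adjusted p = 0.307) for frm-1, and those of anc-1 and frm-1 were not called. With the replicate number as a term these interactions were not called (adjusted p = 0.0846, 0.0693 and 0.0741), and each was lost in 8 of 12 leave-one-out fits, namely without daf-2;daf-42 52 h replicate 1, daf-2;daf-42 52 h replicate 3, daf-2;daf-42 60 h replicate 2, daf-2;daf-42 60 h replicate 3, daf-2 52 h replicate 1, daf-2 52 h replicate 2, daf-2 52 h replicate 3 or daf-2 60 h replicate 2.

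**Figure D5:**
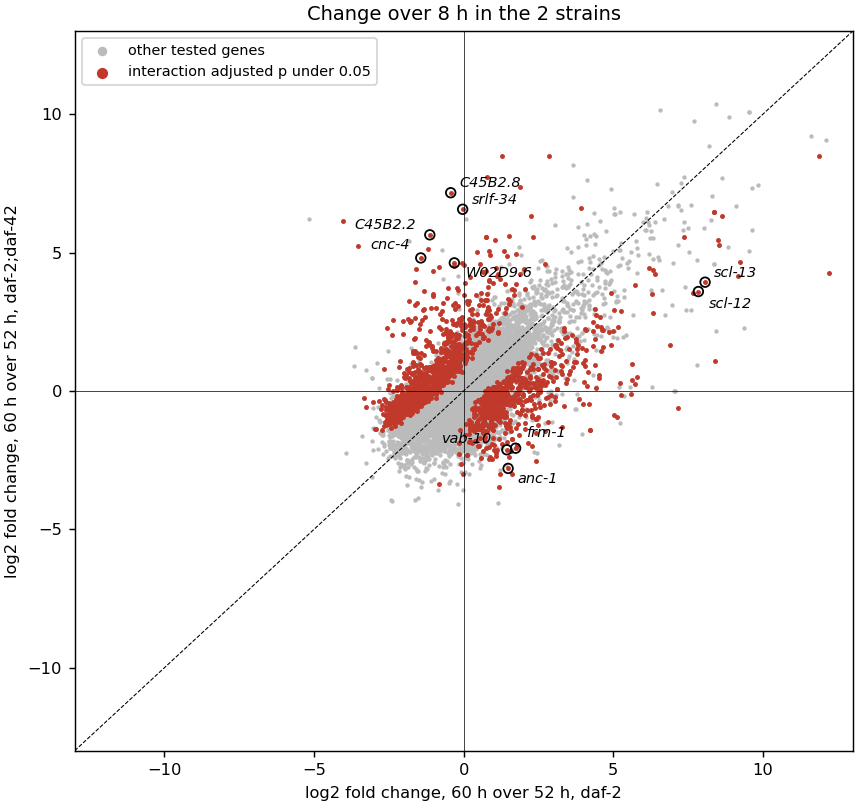
Log2 fold change of 60 h over 52 h in daf-2;daf-42 (vertical axis) against that in daf-2 (horizontal axis) for the 16371 tested genes, with the 1558 genes whose change differed between strains (interaction adjusted p under 0.05) in red and the 10 genes named for their interactions, 5 in each direction under the naming rule, circled. The dashed line marks equal change, and scl-12 and scl-13 lie far to its right, while the circled C45B2.8 and C45B2.2 lie far above it.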

How the data were processed

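Poly(A) RNA of whole larvae was sequenced with strand-preserving libraries, as the labels' protocols state. The authors deposited, for each of 36172 transcripts in each library, an estimated count and a TPM value, per the file headers. Both came from kallisto 0.46.1 on WBcel235, per the submitters' processing notes. The transcriptome release and the strand setting are not given in the sources used here. TPM values, scaled by the authors for transcript length and library total, were used only to check that each deposited library has the same sum.

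Transcript counts were summed to 22113 genes with Ensembl's WBcel235 annotation and rounded to whole numbers. Of the transcripts 31502 matched by identifier and 4581 by sequence name, and 89 stayed unmatched. A gene counts as sharing reads in a library where its summed estimate was not whole within 0.01. Libraries held 30011686 to 43519410 estimated counts, which limit the precision of genes with few counts. Replicates differed by far more than counting noise, so none was counted as a repeat deposit.

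The 12 libraries entered one edgeR 4.0.16 quasi-likelihood fit (R 4.3.3) with 4 group means, TMM scaling and edgeR's default filter on low counts, which left 16371 genes. The contrasts were 60 h over 52 h in daf-2;daf-42, the same in daf-2, and their difference (the interaction). Calls are at a Benjamini-Hochberg adjusted p under 0.05 over all tested genes. CPM values are on TMM-scaled library sizes. The standard error is the fold change divided by the square root of F. Length adjustment entered, as an offset per library, a lowess trend (span 0.3) of each gene's deviation from its mean log2 CPM on log2 transcript length. Mean fragment lengths were taken from the effective lengths in the deposited files. The fits were also run on simulated counts, with no length trend or with the same trend in all 60 h daf-2;daf-42 libraries. The measured trend differed between replicates, so those runs do not test length adjustment in that setting.

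Same-numbered replicates of daf-2;daf-42 deviated together from their group means, with correlations of 0.11, 0.41 and 0.14 for replicates 1, 2 and 3. Replicate 1 at 60 h correlated more with replicate 3 at 52 h (0.29). The main fit has no replicate term, so its p-values use no pairing. The replicate number entered alternative fits only. Any pairing rests on the data, since the labels do not say what a number marks. Same-numbered daf-2 replicates correlated at 0.30, 0.26 and -0.03, and same-numbered libraries of both strains at 60 h at 0.24, -0.63 and 0.12, so the numbers did not pair over all 4 groups. The fit with the replicate number as a term is given beside a result where it ends a call or moves a count by over 1.5 times. It shares each replicate term over all 12 libraries, so it does not match pairing within daf-2;daf-42 alone. A fit of the daf-2;daf-42 libraries alone with that term, chosen after seeing the data, called 6926 genes over time. It kept 88.9% of the 6720 main calls in the same direction. Among the named genes called over time it ended only the call of daf-7 (adjusted p = 0.075).

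Alternatives were RLE and upper-quartile scaling, no filter and a stricter filter on low counts (50 counts in 3 libraries), DESeq2 1.42.0, a minimum fold change of 1.5, 1 strain alone, the length and replicate terms, and leaving out each replicate. Named genes are daf-42, daf-2, the 10 largest rises and falls, the 5 largest interactions in each direction, and members of 46 gene lists. The rises and falls had to average 3 or more on the log2 CPM scale, share no reads, not overlap between times, and be called with and without length adjustment. The interactions had to meet the first 2 of these conditions and be called over time and for the interaction. Members and lists were chosen with earlier results of these data known. No sequences were used.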

Additional observations from a re-analysis of the deposited data

Results flagged for a closer look

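The change between 52 h and 60 h differed between daf-2;daf-42 and daf-2 for 1558 genes by edgeR's interaction test, and the values below are those of the genes named in the text that are among them. Each is a log2 difference, the change in daf-2;daf-42 minus the change in daf-2. Groups of 3 libraries are too small to single out a library that stands apart from its group.

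Interactions of matrix and molting genes were 4.29 for col-140, 3.91 for cut-2, 1.28 for cut-5, 1.64 for mlt-8, 1.72 for mlt-3, -2.41 for nas-37, 2.32 for nas-38 and 2.31 for nas-9. Among timing genes they were -2.23 for daf-12, -3.12 for sea-2 and -1.72 for mab-10. The timing gene interactions were lost in the leave-one-out fits given above and with the replicate number as a term. The interaction of cut-5 was lost without daf-2;daf-42 52 h replicate 1, daf-2;daf-42 60 h replicate 3, daf-2 52 h replicate 2 or daf-2 52 h replicate 3 (adjusted p = 0.0502 to 0.0594).

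Among epidermal antimicrobial peptide genes the interactions were 6.24 for cnc-4, 5.07 for cnc-2, 4.56 for nlp-25, 4.54 for nlp-29, 4.04 for nlp-32, 3.94 for nlp-30, 3.24 for cnc-7, 3.16 for nlp-27, 3.04 for cnc-8, 2.98 for nlp-26, 2.35 for nlp-31 and 2.32 for nlp-24. All 12 were higher in daf-2;daf-42. Of these 12, nlp-24, nlp-26, nlp-31 and cnc-7 lost the call when single libraries were left out: nlp-24 without daf-2;daf-42 52 h replicate 3 (adjusted p = 0.0504), the cnc-7 call without daf-2 52 h replicate 2 (adjusted p = 0.062), nlp-26 without daf-2;daf-42 52 h replicate 2, daf-2;daf-42 52 h replicate 3, daf-2 52 h replicate 1 or daf-2 52 h replicate 2 (adjusted p = 0.0507 to 0.0605) and nlp-31 in 10 of 12 leave-one-out fits, all but those without daf-2;daf-42 60 h replicate 1 or daf-2 60 h replicate 3. With the replicate number as a term nlp-26 (adjusted p = 0.0557) and nlp-31 (adjusted p = 0.0576) were not called either.

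Other positive interactions were 7.60 for C45B2.8, 6.77 for C45B2.2, 6.6 for srlf-34, 4.94 for W02D9.6, 4.07 for ilys-2, 3.13 for cyp-14A5, 2.68 for F45E4.5, 1.78 for elo-4 and 1.58 for crn-2. The interaction of F45E4.5 was lost without daf-2;daf-42 52 h replicate 3 (adjusted p = 0.0563).

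Negative interactions were -4.25 for scl-12, -4.14 for scl-13, -2.29 for asp-9, -4.29 for anc-1, -3.80 for frm-1, -3.57 for vab-10 and -3.30 for unc-22. That of asp-9 was lost without daf-2;daf-42 52 h replicate 3, daf-2;daf-42 60 h replicate 3, daf-2 52 h replicate 2 or daf-2 52 h replicate 3 (adjusted p = 0.0564 to 0.0918) and with the replicate number as a term (adjusted p = 0.0562). The last 4 of these genes have transcripts over 8000 bases. The interaction of unc-22 was lost in the same 10 leave-one-out fits as that of nlp-31 and with the replicate number as a term (adjusted p = 0.092). With length adjustment these 4 interactions were -0.95 (adjusted p = 0.0565) for anc-1, -0.73 (adjusted p = 0.307) for frm-1, -0.95 (adjusted p = 0.0483) for vab-10 and -0.04 (adjusted p = 0.939) for unc-22. Of the 39 named interactions 4 lost the call with length adjustment: anc-1, frm-1, unc-22 and sea-2.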

How the results depend on the processing

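Requiring a fold change above 1.5 left 2643 genes called over time in daf-2;daf-42, 1811 higher and 832 lower, 3131 in daf-2 and 442 for the interaction. Leaving out 1 library gave 3624 to 8359 calls in daf-2;daf-42, 2362 to 4259 higher and 1262 to 4100 lower, and 643 to 4670 interactions. The interaction count was 3412 with DESeq2, 2501 with length adjustment and 921 with the replicate block. DESeq2 called 7753 genes between the times in daf-2;daf-42, the replicate block 6168. Of the 6720 calls 4485 (66.7%) held in the same direction with length adjustment, 5904 with the replicate block and 6703 with DESeq2. Of the 132 named genes called over time, 115 kept direction and call in every alternative. The rule for the named rises and falls required a call with length adjustment, and other genes were chosen with results known. The 115 therefore do not measure how far calls hold over all genes. Of all 6720 calls 39.3% held with a fold change above 1.5, 53.4% without 52 h replicate 3 and 57.6% without 60 h replicate 2. Beyond the calls given beside their results, the replicate block changed no time call among the named genes, and of the 39 named interactions it ended 10. One-strain fits with the length or replicate term were chosen after seeing the data.

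With length adjustment the sign turned for frm-1 (0.35), unc-22 (0.12), daf-16 (0.01), ced-4 (0.20), nlp-24 (-0.03), cnc-9 (-0.11) and sod-3 (-0.19), and in the daf-2;daf-42 libraries alone it stood at 0.36, 0.12, 0.01, 0.20, -0.04, -0.16 and -0.19 in that order. None of these values was called. The sign of cnc-3 turned with upper-quartile scaling (0.02) and without single libraries, over a range of -0.44 to 0.20. So did mlt-8 (-0.26 to 0.00), lin-28 (-0.17 to 0.00) and ced-4 (-0.30 to 0.04) without single libraries. The cause was not tested.

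With 3 libraries per group, genes with few counts and long transcripts carry the least certain values. The share of dead larvae in the 60 h harvest is unknown. The change over time moved with transcript length in daf-2;daf-42, and time and the death of larvae cannot be told apart.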
